A study of Mus musculus with 12 samples.

Results

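Chemokines are small secreted proteins that draw immune cells to a tissue, and 32 genes that encode them were followed in RNA-seq of colonocytes, which form the inner lining of the mouse colon. A gene was included where its symbol was Ccl or Cxcl followed by a number, or Cx3cl1, in both deposited tables. That rule took 18 Ccl genes, 13 Cxcl genes and Cx3cl1 out of 23790 genes. A gene was called expressed where the mean RPKM (reads scaled to gene length and sequencing depth) of at least 1 of the 4 groups was 1 or more, and the other genes were taken as lying at the floor. The study compared purified wild-type (WT) colonocytes with colonocytes of C15ORF48/miR-147 knockout (KO) mice, which lack a locus that yields a small protein and a microRNA. Each genotype was profiled untreated and after dextran sodium sulfate (DSS), which damages the gut lining and sets off colitis, at 3% for 3 days. The 4 groups, WT untreated, KO untreated, WT DSS and KO DSS, had 3 libraries each. The series text states the purpose as finding how the locus controls gut inflammation. The labels conflict, since their protocol text mentions DSS for each of the 12 libraries and a separate field marks 6 as untreated; titles and that field were used. The sources used here do not give the strain, the age or the design of the deletion. Whether replicate libraries are different mice is not stated either, and p-values therefore refer to the spread among libraries, which may be technical.

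Chemokines are sorted into families by the spacing of the cysteines near the start of the protein, CC in the Ccl genes, CXC in the Cxcl genes and CX3C in Cx3cl1, and they act through G-protein-coupled receptors on leukocytes. Homeostatic chemokines are made without a stimulus and maintain the normal traffic of lymphocytes and other resident cells. Inflammatory chemokines are induced by NF-kappaB signals or by interferons and recruit neutrophils, monocytes and effector T cells. The gut epithelium is known as a source of both kinds.

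The libraries held 20606918 to 26839250 reads on genes in the untreated table and 12621697 to 16707030 in the DSS table. AA467197, the mouse gene of C15ORF48, stood between 430 and 442 RPKM in the WT untreated libraries and between 370 and 515 in the WT DSS libraries. In the KO libraries it stood between 4.03 and 5.67 RPKM untreated and between 6.54 and 9.19 under DSS. The 14 epithelial marker genes were all expressed, with a summed level of 11312 to 23819 RPKM. Markers of other cells were also present at lower levels. Neutrophil markers, 9 genes, summed to 15.6 to 130 RPKM, and most of this was Ly6g, at 15.2 to 118 RPKM. The next highest of them, S100a9, averaged 0.799 RPKM over the 12 libraries, beside 56.9 RPKM for Ly6g. In WT untreated libraries S100a8 averaged 0 RPKM and S100a9 0.0560 RPKM, beside 25.6 RPKM for Ly6g. The sum therefore mainly followed Ly6g and is not read as a level of neutrophils. The sum over 12 macrophage and dendritic cell markers was 2.83 to 17.2 RPKM, that over the 12 of 13 listed T cell and intraepithelial lymphocyte markers found in the tables was 13.9 to 49.1 RPKM, and that over 6 B cell markers was at most 0.571 RPKM. A fibroblast and smooth muscle sum of 31.3 RPKM set WT untreated replicate 3 apart from the other 11 libraries, which lay between 3.77 and 9.79. In bulk RNA, fewer cells of a type and less RNA per cell cannot be told apart, and a chemokine read cannot be assigned to the epithelium or to an admixed leukocyte.

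Of the 32 chemokine genes, 10 were expressed and 22 were at the floor. The expressed genes, in order of their highest group mean, were Ccl6, Ccl28, Cx3cl1, Ccl9, Ccl5, Ccl25, Cxcl16, Cxcl10, Ccl20 and Cxcl9. The first 7 of these and Ccl20 were expressed in all 4 groups. The number of expressed genes was 8 in WT untreated, 8 in KO untreated, 9 in WT DSS and 10 in KO DSS libraries, where Cxcl10 joined under DSS and Cxcl9 in KO DSS alone. The expressed share of 31.25% of the chemokine genes stood against 47.7% of all genes. Nearest to the threshold were Cxcl9, with a KO DSS mean of 1.14 RPKM just inside it, and Cxcl13, with a KO DSS mean of 0.916 RPKM, and Cxcl5, with 0.776 RPKM, just outside it. Cxcl9 rested on KO DSS replicate 3, without which 9 genes were expressed.

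**Figure D1:**
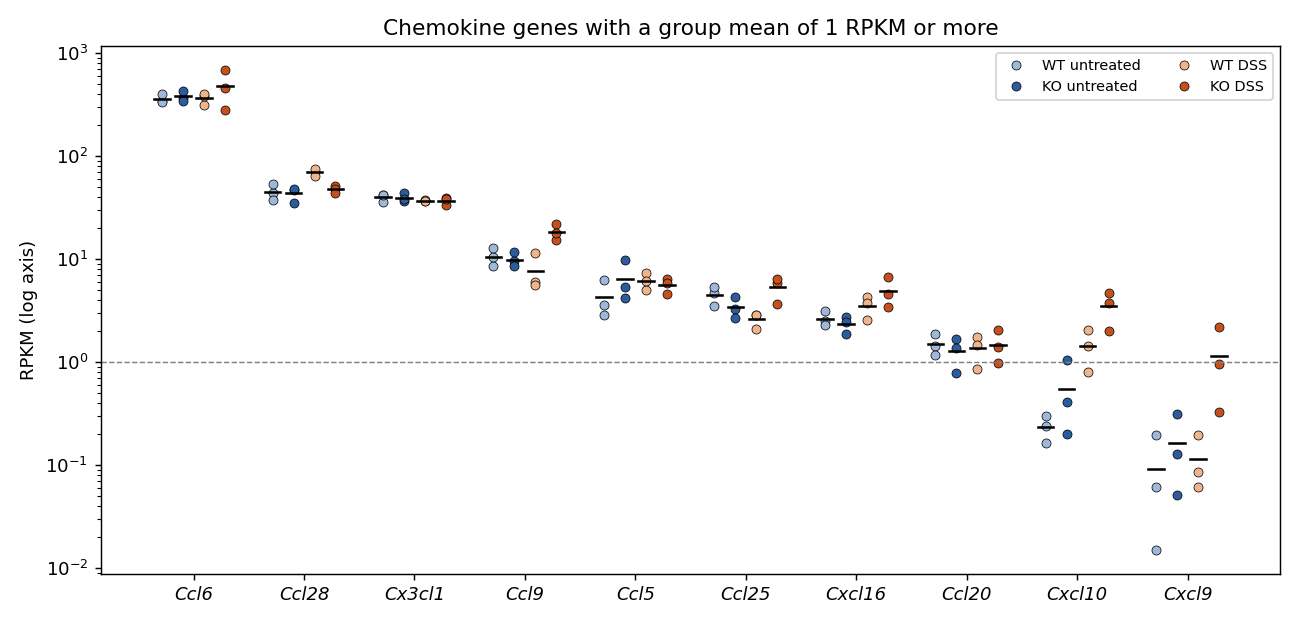
RPKM on a log axis (vertical) of the 10 expressed chemokine genes (horizontal), with a point for each of the 12 libraries and a bar for the mean of each group of 3; the dashed line marks 1 RPKM. Ccl6 sits between 277 and 683 RPKM in every library, while Cxcl9 crosses 1 RPKM only in KO DSS replicate 3.

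By RPKM, most of the chemokine RNA in these libraries was that of Ccl6. The summed level of the 32 genes was 404 to 810 RPKM per library, and Ccl6 made up 68.6% to 84.3% of it. Ccl6, Ccl28 and Cx3cl1 together made up 90.1% to 95.6%. Averaged over the 12 libraries, Ccl6 ranked at place 134 among all genes by RPKM, Ccl28 at 1568, Cx3cl1 at 2102 and Ccl9 at 5431. Within the WT untreated libraries the levels of Ccl6 lay above those of Ccl28 and Cx3cl1, whose ranges overlapped, and these lay above Ccl9. The ranges of Ccl25 and Ccl5 overlapped each other, as did those of Ccl5 and Cxcl16, and Ccl20 was the lowest of the 8.

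Ccl6, a mouse CC chemokine that acts on the receptor Ccr1 of macrophages and other myeloid cells, lies at chr11:83587882-83593087 on the minus strand (GRCm38, gene ENSMUSG00000018927.3). It stood at 338, 330 and 400 RPKM in WT untreated replicates 1, 2 and 3 and at 362, 429 and 343 RPKM in KO untreated replicates 2, 4 and 5. Under DSS it stood at 313, 385 and 397 RPKM in WT replicates 1, 2 and 3 and at 683, 277 and 456 RPKM in KO replicates 1, 2 and 3. The KO DSS libraries held both the highest and the lowest value of the 12, so the groups overlapped. The means were 356 ± 38.2 RPKM (SD, n = 3) in WT untreated, 378 ± 45.4 in KO untreated, 365 ± 45.9 in WT DSS and 472 ± 203 in KO DSS libraries. On the log2(RPKM + 1) scale the KO against WT difference was 0.09 (SE 0.12) untreated and 0.28 (SE 0.30) under DSS, with adjusted p-values of 0.821 and 0.604 from limma. Levels of untreated and DSS libraries come from tables normalised separately and are set side by side here and in what follows, with no test. The processed transcript E230016K23Rik overlaps Ccl6 on the other strand, at no more than 0.156 RPKM in any library, and the sources used here do not give the strand setting of the read counting.

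Ccl9, the neighbour of Ccl6 and likewise a ligand of Ccr1, is known in mice for its expression in the epithelium over Peyer's patches. The gene lies at chr11:83572919-83578636 on the minus strand, 9.245 kb from Ccl6 in a cluster with Ccl5, which is 42.4 kb from Ccl9 on the other side. Its RPKM was 8.48, 10.4 and 12.7 in the WT untreated libraries and 9.53, 11.6 and 8.45 in the KO untreated libraries. Under DSS the 3 WT libraries stood at 5.95, 5.58 and 11.3 RPKM and the 3 KO libraries at 21.9, 15.1 and 17.7 RPKM. Every KO DSS library was above every other library of the 12. The group means under DSS were 7.62 ± 3.22 RPKM in WT and 18.2 ± 3.43 in KO libraries (SD, n = 3), a ratio of 2.40. The level of Ccl9 relative to Ccl6 was 0.0246 to 0.0318 in the 6 untreated libraries, 0.0145 to 0.0285 in the WT DSS libraries and 0.0321 to 0.0547 in the KO DSS libraries.

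The KO against WT difference of Ccl9 under DSS was 1.21 on the log2(RPKM + 1) scale (SE 0.24; 95% interval 0.66 to 1.75), with an unadjusted p of 0.000719 and an adjusted p of 0.0637 from limma, above the threshold of 0.05. In untreated libraries the difference was -0.08 (SE 0.16, adjusted p = 0.879). The interaction, which is the KO against WT difference under DSS minus that in untreated libraries, was 1.29 (SE 0.32), with a limma adjusted p of 0.0649. The authors' deposited table gives Ccl9 a log2 fold change of 1.26 under DSS and a false discovery rate of 0.0462. Without WT DSS replicate 3, the highest of the 3 WT values, the limma adjusted p was 0.0381 for the difference under DSS and 0.0258 for the interaction. Over all alternatives the limma adjusted p of the DSS difference ran from 0.0121 to 0.294. The low end came from a fit that paired libraries by replicate number, a pairing not adopted here.

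Ccl28, a chemokine of mucosal epithelia that draws IgA-secreting plasma cells through Ccr10, was the second most abundant. The gene lies at chr13:119623819-119654359 on the plus strand. It stood at 43.4, 53.3 and 37.3 RPKM in the WT untreated libraries and at 46.9, 35.0 and 48.2 RPKM in those of KO untreated cells. Under DSS it stood at 70.3, 74.3 and 63.6 RPKM in WT libraries and at 50.7, 48.1 and 44.0 RPKM in KO libraries. The 3 WT DSS values were the highest of the 12, and each KO DSS value lay below each WT DSS value and within the range of the untreated libraries. The ratio of the KO to the WT mean was 0.686 under DSS and 0.972 untreated. The difference under DSS was -0.53 on the log2(RPKM + 1) scale (SE 0.12; 95% interval -0.81 to -0.26), with an unadjusted p of 0.00185 and an adjusted p of 0.0939 from limma. It was -0.04 (SE 0.16, adjusted p = 0.949) in untreated libraries, and the interaction was -0.49 (SE 0.20, limma adjusted p = 0.217). The limma adjusted p under DSS was 0.0430 without KO DSS replicate 1 and ran from 0.0430 to 0.390 over all alternatives. The transcripts of the receptor Ccr10 were below 1 RPKM in every group, and the B and plasma cell markers were near 0.

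Cx3cl1, or fractalkine, is made as a membrane-anchored protein, is cut from the cell surface by the proteases Adam10 and Adam17, and binds Cx3cr1 on monocytes and macrophages. The gene lies at chr8:94772009-94782427 on the plus strand, between Ccl22 at 20.3 kb and Ccl17 at 28.0 kb, both of which were at the floor. Cx3cl1 stayed between 33.4 and 43.8 RPKM in the 12 libraries. Its RPKM was 41.4, 35.8 and 41.4 in WT untreated, 36.0, 43.8 and 38.0 in KO untreated, 37.6, 36.6 and 36.3 in WT DSS and 33.4, 38.7 and 38.4 in KO DSS libraries. All 4 ranges overlapped. The KO against WT difference was -0.01 on the log2(RPKM + 1) scale untreated (95% interval -0.24 to 0.21) and -0.0022 under DSS (95% interval -0.26 to 0.26), and both limma adjusted p-values were at or above 0.98. Adam10 averaged 42.4 RPKM and Adam17 9.30 RPKM over the 12 libraries, and neither was called by limma in any comparison.

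Ccl25, known as the ligand of Ccr9 that directs T cells to the small intestine and the thymus, was low but measurable in the colon cells. The gene lies at chr8:4325210-4360020 on the plus strand. Its values were 4.67, 5.34 and 3.47 RPKM in WT untreated and 3.26, 4.25 and 2.69 RPKM in KO untreated libraries. Under DSS they were 2.83, 2.09 and 2.88 RPKM in WT and 5.77, 3.63 and 6.41 RPKM in KO libraries. Each KO DSS value lay above each WT DSS value, and the ratio of the means was 2.03. The untreated groups overlapped, with the KO mean at 0.757 of the WT mean. The difference under DSS was 0.78 on the log2(RPKM + 1) scale (SE 0.19; 95% interval 0.34 to 1.22), with an unadjusted p of 0.00291 and an adjusted p of 0.107 from limma. In untreated libraries it was -0.32 (SE 0.17, adjusted p = 0.584), and the interaction was 1.10 (SE 0.28, limma adjusted p = 0.0667). Without KO DSS replicate 2, the lowest of the 3 KO values, the limma adjusted p was 0.0488 under DSS and 0.0412 for the interaction. Over all alternatives the limma adjusted p under DSS ran from 0.0185, again in the fit paired by replicate number, to 0.411.

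Cxcl16, a transmembrane chemokine that binds Cxcr6 on T cells and innate lymphocytes, lies at chr11:70453983-70459984 on the minus strand, apart from the other chemokine genes of that chromosome. Its values were 3.08, 2.5 and 2.26 RPKM in WT untreated, 2.74, 2.46 and 1.86 in KO untreated, 4.26, 2.57 and 3.74 in WT DSS and 3.40, 4.56 and 6.71 in KO DSS libraries. The KO and WT ranges overlapped in both tables. The difference under DSS was 0.36 on the log2(RPKM + 1) scale (95% interval -0.14 to 0.87, limma adjusted p = 0.383). Ccl20, the ligand of Ccr6 that the epithelium over lymphoid follicles makes to draw dendritic cells and lymphocytes, lies at chr1:83116766-83119167 on the plus strand. It ranged from 0.776 to 2.03 RPKM over the 12 libraries on 10 to 34 reads each. Its group means were 1.49 ± 0.360 RPKM in WT untreated, 1.27 ± 0.457 in KO untreated, 1.35 ± 0.453 in WT DSS and 1.47 ± 0.527 in KO DSS libraries (SD, n = 3), which differed by less than the spread between libraries.

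Ccl5, which activated T cells and intraepithelial lymphocytes are known to make and which acts on Ccr1 among other receptors, lies at chr11:83525778-83530518 on the minus strand. Its values were 2.84, 3.53 and 6.29 RPKM in WT untreated replicates 1 to 3 and 5.37, 4.14 and 9.82 RPKM in KO untreated replicates 2, 4 and 5. Under DSS they were 5.0, 7.23 and 6.09 RPKM in WT and 6.4, 4.6 and 5.79 RPKM in KO libraries. The groups overlapped in both tables. The KO against WT difference was 0.49 on the log2(RPKM + 1) scale untreated (SE 0.31, adjusted p = 0.631) and -0.11 under DSS (SE 0.16, adjusted p = 0.734) in limma. Within each untreated group, the library with the most Ccl5 was also that with the highest summed T cell and intraepithelial lymphocyte markers, at 25.2 RPKM in WT untreated replicate 3 and 34.7 RPKM in KO untreated replicate 5. The highest marker sum of the 12, 49.1 RPKM in KO DSS replicate 3, went with 5.79 RPKM of Ccl5. The part of these cells in the Ccl5 values was not tested.

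Cxcl9, Cxcl10 and Cxcl11 are induced by interferons and share the receptor Cxcr3 of activated T cells and natural killer cells. They are neighbours on chromosome 5, with 18.6 kb between Cxcl9 and Cxcl10 and 10.7 kb between Cxcl10 and Cxcl11. Cxcl10, at chr5:92346638-92348889 on the minus strand, stood at 0.161, 0.238 and 0.299 RPKM in WT untreated and at 1.04, 0.200 and 0.406 RPKM in KO untreated libraries. Under DSS it stood at 1.44, 2.04 and 0.791 RPKM in WT and at 2.01, 3.75 and 4.64 RPKM in KO libraries. The KO DSS values were higher than the WT DSS values apart from an overlap of KO DSS replicate 1 with WT DSS replicate 2. The difference under DSS was 0.87 on the log2(RPKM + 1) scale (SE 0.26; 95% interval 0.28 to 1.45), with an unadjusted p of 0.00853 and an adjusted p of 0.150 from limma. Without KO DSS replicate 1 the limma adjusted p was 0.0285, and over all alternatives it ran from 0.0285 to 0.431. The interaction was 0.57 (SE 0.36, limma adjusted p = 0.399).

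Cxcl9, at chr5:92321347-92328079 on the minus strand, held 4, 1 and 12 reads in the WT untreated, 9, 25 and 3 in the KO untreated, 9, 3 and 4 in the WT DSS and 12, 44 and 96 in the KO DSS libraries. In RPKM the KO DSS libraries stood at 0.326, 0.948 and 2.16 and the WT DSS libraries at 0.196, 0.0610 and 0.0856. Every KO DSS library was above every WT DSS library, and a single library was at 1 RPKM or more, so Cxcl9 did not enter the limma fit. The authors' deposited table gives it a log2 fold change of 3.32 under DSS and a false discovery rate of 0.0535. With no filter on low values the limma adjusted p was 0.272. Cxcl11, which GENCODE annotates in the reference genome as a polymorphic pseudogene, held 10 reads over the 3 WT DSS libraries and 31 over the 3 KO DSS libraries, 22 of them in KO DSS replicate 3.

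The sequence before the start of Cxcl10 is shown because it carried an interferon-stimulated response element (ISRE), the DNA motif read by factors of the interferon response. Promoters of RefSeq on GRCm38.p6, from 250 bases before to 50 bases after each gene start, were found for 21 of the 32 genes in 22 windows, and motifs were searched on both strands. The ISRE letters, GAAA and GAAA with any 2 bases between them, were found in the windows of Cxcl10 and Cxcl14, 2 of the 22, against 3.44% of all 32851 windows. The stretch printed runs from 230 to 111 bases before the start (chr5:92349000-92349119, minus strand), with the motif, 213 bases before the start, in capitals.
Cxcl10: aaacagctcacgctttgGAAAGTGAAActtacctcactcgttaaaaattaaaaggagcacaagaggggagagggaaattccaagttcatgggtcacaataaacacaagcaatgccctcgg
The interferon gamma activation letters, TTC and GAA with any 3 bases between them, were found in the windows of Ccl17 and Cxcl14, 2 of the 22, against 8.3% of all windows.

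Cxcl1, Cxcl2, Cxcl3 and Cxcl5 are the neutrophil chemokines, which act on Cxcr2 and which epithelial cells are known to make in response to bacteria, IL-1 and IL-17. All 4 were at the floor. In untreated libraries Cxcl1 held 2 reads over the WT and 5 over the KO libraries, Cxcl2 held 1 and 1, Cxcl5 held 8 and 5, and Cxcl3 held none. Under DSS Cxcl1 held 1, 1 and 1 reads in the WT and 3, 4 and 5 in the KO libraries, and Cxcl2 held 1, 0 and 0 reads in the WT and 3, 6 and 16 in the KO libraries. For both genes every KO DSS library was above every WT DSS library. Cxcl5 held 6, 7 and 6 reads in the WT DSS and 2, 34 and 24 in the KO DSS libraries, where replicate 1 was below the WT libraries and replicates 2 and 3 were above them. Cxcl3 held 2, 0 and 0 reads in the WT DSS and 0, 3 and 5 in the KO DSS libraries. The authors' deposited table gives Cxcl2 a log2 fold change of 4.32 with a false discovery rate of 0.0640 and Cxcl1 a log2 fold change of 2.01 with a false discovery rate of 0.326. Reads of Cxcl1, Cxcl2 and Cxcl3, which are close relatives, may be divided between them by the counting.

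The promoters of Cxcl1, Cxcl2 and Cxcl3 are shown because these 3 genes alone, of the 21 with a promoter window, held the NF-kappaB letters, GGGA and TTTCC with any 1 base between them. None of the 9 windows of expressed genes and 3 of the 13 windows of floor genes held them, against 0.411% of all windows. Other spellings of the motif were not searched. The window of Cxcl10, an expressed gene, holds the related letters gggaaattcc and gggacttccc, which the searched pattern does not cover. The split between expressed and floor genes therefore holds for the searched letters alone. Each stretch is the 120 bases that end at the base before the gene start, on the plus strand of chromosome 5, with the motif in capitals (Cxcl1 chr5:90891125-90891244, Cxcl2 chr5:90903779-90903898, Cxcl3 chr5:90785981-90786100). The motif begins 71, 97 and 73 bases before the start in Cxcl1, Cxcl2 and Cxcl3.
Cxcl1: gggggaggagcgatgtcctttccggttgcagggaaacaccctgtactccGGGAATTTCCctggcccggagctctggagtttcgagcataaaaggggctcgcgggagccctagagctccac
Cxcl2: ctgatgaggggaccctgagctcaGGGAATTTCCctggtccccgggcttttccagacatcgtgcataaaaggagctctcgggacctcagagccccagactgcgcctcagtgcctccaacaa
Cxcl3: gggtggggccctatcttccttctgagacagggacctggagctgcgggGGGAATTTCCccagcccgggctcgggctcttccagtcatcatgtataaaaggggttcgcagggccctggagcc
A match of letters is a description of the sequence and not evidence of binding in these cells.

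Of the remaining floor genes, Cxcl13, which guides B cells through Cxcr5, was the most abundant by reads, with 142 over the 12 libraries and 0.283 to 1.18 RPKM. Ccl17 and Ccl22, ligands of Ccr4, held 5 and 11 reads in the WT DSS libraries together and 13 and 48 in the KO DSS libraries together. Cxcl12, the ligand of Cxcr4 known from stromal cells, held 79 reads in all and no more than 0.128 RPKM. Ccl3 and Ccl4, which draw macrophages and T cells, held 15 and 14 reads over the 12 libraries, and Ccl8, which acts on monocytes and lymphocytes, also held 15, of which 9 were in KO DSS replicate 3. The monocyte chemokines Ccl2 and Ccl7 held 3 and 2 reads and the eotaxins Ccl11 and Ccl24 held 4 and 9. Cxcl14 held 16 reads, Cxcl15 and Cxcl17 3 each and Ccl1 2. No read fell on Ccl12 or Ccl26 in the 12 libraries. A count of 0 allows up to 3 reads per library, or 0.112 to 0.238 CPM, so these 2 genes were not detectable at this depth. This limit covers counting error only.

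**Figure D2:**
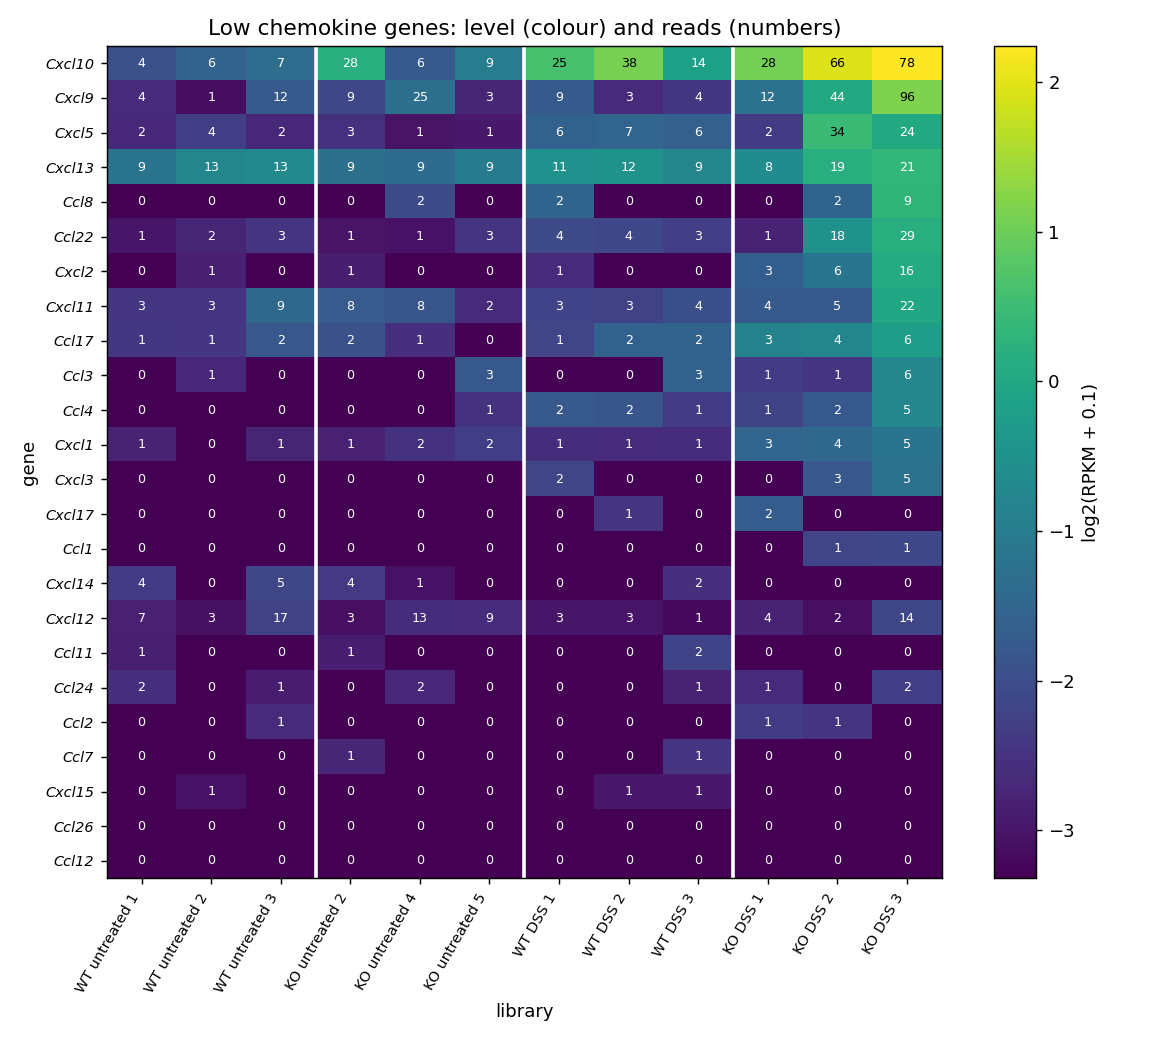
Colour gives log2(RPKM + 0.1) and the numbers give reads for the 22 floor genes and Cxcl9 and Cxcl10 (rows) in each of the 12 libraries (columns), with white lines between the groups. Reads collect in the KO DSS columns, chiefly in replicates 2 and 3, for Cxcl9 (12, 44 and 96), Cxcl5 (2, 34 and 24) and Ccl22 (1, 18 and 29).

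Most of the low chemokines had a higher mean in KO than in WT libraries under DSS, though none of them entered the limma fit. Under DSS 21 chemokine genes had a read but did not reach 1 RPKM in 3 of the 6 libraries. Of these, 17 had a KO mean above the WT mean, against 55.5% of the 6586 genes in the same range. In 5 of the 21, Cxcl1, Cxcl2, Cxcl9, Cxcl11 and Ccl17, every KO library was above every WT library, against 6.80% of those genes, and in none was every KO library below, against 5.10%. Among untreated libraries 8 of 19 such genes had a KO mean above the WT mean, against 46.6% of 6847 genes, and none was separated in either direction, against 3.39% higher and 3.91% lower. The DSS count of separated genes was 10 without KO DSS replicate 1, and 5 to 7 when any other DSS library was left out.

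Reads of the floor genes were spread unevenly over the KO DSS libraries. The summed level of the floor genes was 0.888 to 1.49 RPKM in untreated libraries and 1.70 to 1.95 in WT DSS libraries, and it was 2.44, 5.14 and 8.97 RPKM in KO DSS replicates 1, 2 and 3, on 34, 102 and 165 reads. Leukocyte markers differed from list to list. The macrophage and dendritic cell marker sum was 2.83, 5.81 and 8.83 RPKM in WT DSS and 6.15, 17.2 and 16.6 RPKM in KO DSS replicates 1, 2 and 3, with 3 of 12 markers at a group mean of 1 RPKM or more; untreated it was 9.23 to 14.4 RPKM in WT and 7.06 to 8.33 RPKM in KO libraries. Its member C1qa, a complement component of macrophages, was higher in KO than in WT DSS libraries, at a mean of 3.01 against 0.167 RPKM (log2 difference 1.71, SE 0.26, limma adjusted p = 0.0340). C1qa averaged 3.87 RPKM in WT untreated and 3.07 RPKM in KO untreated libraries, so that the WT DSS mean was the low one of the 4. C1qb averaged 0.134, 0.255, 0.276 and 0.588 RPKM in WT untreated, KO untreated, WT DSS and KO DSS libraries. C1qc averaged 0.113, 0.202, 0.211 and 0.493 RPKM in the same order. Cd68, Csf1r, Adgre1, Lyz2 and Itgax also rose from WT untreated to WT DSS means and were highest in KO DSS. Fcgr1, Xcr1 and Mrc1 had a lower mean in WT DSS than in WT untreated libraries. Mrc1, a macrophage receptor, averaged 2.55 RPKM in WT DSS and 2.15 RPKM in KO DSS libraries (log2 difference -0.20, SE 0.59, limma adjusted p = 0.874). The T cell and intraepithelial lymphocyte marker sum was 16.8, 26.0 and 31.3 RPKM in WT DSS and 33.4, 28.5 and 49.1 RPKM in KO DSS replicates 1, 2 and 3. Its members Gzma, at a mean of 4.98 RPKM in WT DSS and 2.71 in KO DSS libraries, and Cd8b1, at 0.0956 and 0.0288, went down. The others had a higher mean in KO DSS libraries, among them Xcl1, itself a chemokine, at 3.90 and 7.52 RPKM. Among neutrophil markers S100a8 averaged 0.425 RPKM in WT DSS and 1.98 in KO DSS libraries and S100a9 0.435 and 2.66 RPKM, while Elane, Mpo and Camp had no read in any library. S100a9 stood at 0.724, 0.225 and 0.356 RPKM in WT DSS and at 0.302, 1.43 and 6.24 RPKM in KO DSS replicates 1, 2 and 3. Ly6g averaged 25.6, 53.4, 56.3 and 92.2 RPKM in WT untreated, KO untreated, WT DSS and KO DSS libraries. Its log2 difference under DSS was 0.70 (SE 0.28, limma adjusted p = 0.232). The B and plasma cell sum averaged 0.434 RPKM in WT DSS and 0.370 RPKM in KO DSS libraries, and the mast cell and eosinophil sum 19.2 and 18.0 RPKM. Members of the latter sum went opposite ways. Most of it was Kit, at 16.3 RPKM in WT DSS and 11.2 RPKM in KO DSS libraries (limma adjusted p = 0.227). Mcpt1 averaged 0.813 and 2.92 RPKM in the same order (log2 difference 1.03, limma adjusted p = 0.144) and Siglecf 1.75 and 2.53 RPKM. Mcpt2, Cpa3 and Prg2 also had a higher mean in KO DSS libraries, and Epx had a lower one. The part of these cells in the low chemokines, and in Cxcl9 and Cxcl10, was not tested.

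**Figure D3:**
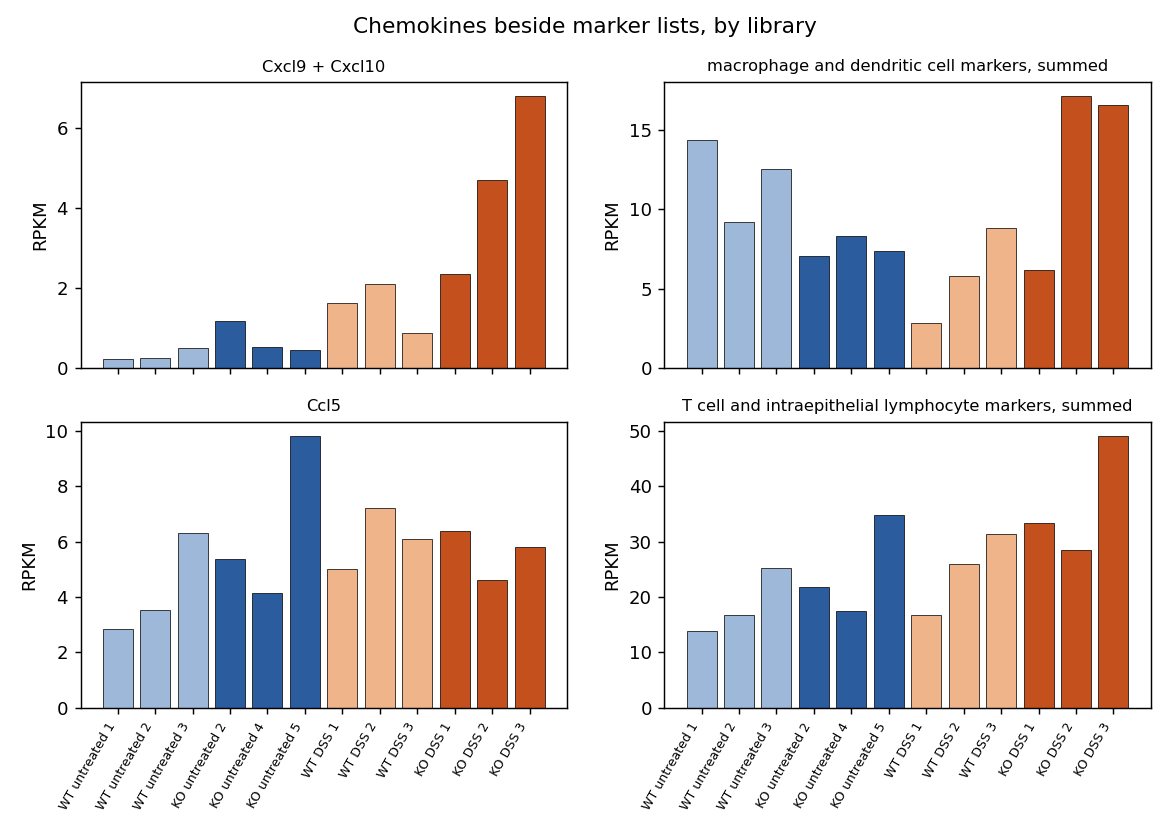
RPKM per library (bars from 0) of Cxcl9 and Cxcl10 summed, of 12 macrophage and dendritic cell markers summed, of Ccl5, and of the T cell and intraepithelial lymphocyte markers summed, coloured by group. KO DSS replicates 2 and 3 have the highest macrophage and dendritic cell sums (17.2 and 16.6 RPKM), and KO untreated replicate 5 has the highest Ccl5 (9.82 RPKM).

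No chemokine gene passed the threshold of limma in any comparison. Untreated, 8 were tested and none was called, against 0.0181% of the 11072 genes tested. In none were the KO libraries all above or all below the WT libraries, against 8.32% and 7.68% of genes. None had an unadjusted p under 0.05, against 9.09%, and limma's voom on whole reads recovered from the RPKM called none either. Under DSS 9 were tested and none was called, against 0.764% of 10990 genes, and voom again called none. At an unadjusted p under 0.05 there were 4, Ccl9, Ccl25 and Cxcl10 higher and Ccl28 lower in KO libraries, against 18.7% of all genes tested. Their KO and WT libraries did not overlap for Ccl9 and Ccl25, higher, and Ccl28, lower, against 11.1% and 11.9% of genes. The median log2 difference of the 9 genes was 0.28 under DSS, beside -0.01 for all genes, and that of the 8 genes untreated was -0.06, beside 0.01. In the interaction 9 were tested and none was called by limma or voom, against 1.4% of 11306 genes, and 3 (Ccl9, Ccl25 and Ccl28) had an unadjusted p under 0.05, against 19%.

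The authors' deposited tables, which test every gene without this filter, give 10 chemokine genes a p-value under 0.05 under DSS, 9 higher and Ccl28 lower, against 11.9% of all 23790 genes. Only Ccl9 had a false discovery rate under 0.05 in the authors' deposited table of the DSS libraries, against 0.866% of all genes. In the authors' deposited table of the untreated libraries no chemokine had a p-value under 0.05, against 5.12% of all genes.

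**Figure D4:**
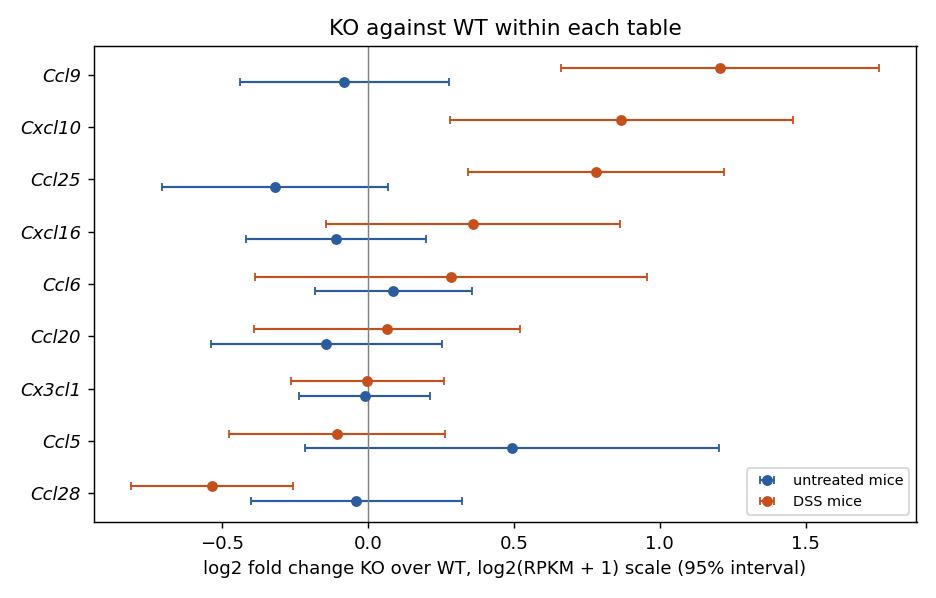
KO against WT difference on the log2(RPKM + 1) scale (horizontal), with 95% intervals from limma, of the chemokine genes tested (vertical) in the untreated and the DSS table, 3 libraries a group. The DSS intervals of Ccl9 (0.66 to 1.75), Cxcl10 (0.28 to 1.45) and Ccl25 (0.34 to 1.22) lie above 0 and that of Ccl28 (-0.81 to -0.26) below it, before adjustment for the number of genes.

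The receptors that these ligands bind were hardly represented in the colonocytes. Of 23 chemokine receptor genes 3 had a group mean of 1 RPKM or more, against 47.7% of all genes, and Cxcr1 had no read. The highest means over the 12 libraries were 1.04 RPKM for Ackr4, a scavenger of homeostatic chemokines, 0.834 RPKM for Ccr1, the receptor of Ccl6, Ccl9 and Ccl5, and 0.830 RPKM for Ccrl2, an atypical receptor. Ccr1 averaged 0.512 RPKM in WT DSS and 1.41 RPKM in KO DSS libraries. No receptor was tested untreated, 1 (Ackr4) was tested under DSS and 2 (Ackr4 and Ccrl2) in the interaction. Limma called none of them, against 0.764% of all genes tested under DSS and 1.4% in the interaction. Ackr4 did not have an unadjusted p under 0.05 under DSS, against 18.7% of all genes tested.

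Chemokines with other names were at or near 0 except for Xcl1, a T cell and natural killer cell chemokine that is also among the lymphocyte markers. Xcl1 averaged 3.00 RPKM in WT untreated, 3.04 in KO untreated, 3.90 in WT DSS and 7.52 in KO DSS libraries, with a difference under DSS of 0.80 on the log2 scale (SE 0.18, limma adjusted p = 0.0929). Pf4 averaged 0.436 RPKM and Ccl27a 0.294 RPKM, and the near-identical copies Ccl21b, Ccl21c and Ccl27b were at 0.

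Of 12 cytokines that induce chemokines, Il18 was the most abundant, at 65.6 RPKM in WT untreated, 75.8 in KO untreated, 138 in WT DSS and 179 in KO DSS libraries on average. Tnf averaged 0.350, 0.486, 0.775 and 1.53 RPKM and Il1b 0.0336, 0.0928, 0.385 and 2.40 RPKM in the same order. Il1b stood at 0.328, 0.0438 and 0.784 RPKM in WT DSS and at 0.703, 1.39 and 5.09 RPKM in KO DSS replicates 1, 2 and 3, so these groups overlapped. Neither of the 2 cytokines tested under DSS, nor the 1 tested untreated, was called by limma or had an unadjusted p under 0.05. Of 16 receptor genes listed beside these cytokines, 15 were tested in each comparison and none was called by limma. The gene not tested, Il18r1, a receptor of Il18, averaged 0.306 RPKM over the 12 libraries. The list also held Tlr2, Tlr4, Tlr5, Ifnar1, Ifnar2 and Ifnlr1, which are not receptors of the 12 cytokines. Tlr2 alone had an unadjusted limma p under 0.05 under DSS, against 18.7% of all genes tested. Untreated, Il1r1 and Tlr4 did, against 9.09%. Ifngr1, which binds interferon gamma, averaged 151 RPKM, its partner Ifngr2 122 RPKM, and Il10rb, a shared chain of the IL-10 and IL-22 receptors, 70.6 RPKM. The median log2 difference of the 15 was 0.11 under DSS and 0.0035 untreated.

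All 16 transcription factor and regulator genes of the chemokine promoters were tested and none was called by limma in any comparison. Irf1, which binds interferon response elements, averaged 41.3, 47.7, 48.8 and 68.4 RPKM in WT untreated, KO untreated, WT DSS and KO DSS libraries, with a difference under DSS of 0.47 (SE 0.19, adjusted p = 0.235). Irf7 averaged 48.5, 51.3, 28.6 and 43.6 RPKM in the same order, with a difference under DSS of 0.62 (SE 0.18, adjusted p = 0.139), and Fos averaged 41.5 RPKM over the 12 libraries. Irf1 and Irf7 were among the genes with an unadjusted p under 0.05 under DSS, 3 of 16 against 18.7% of all genes tested, and Irf1 and Rel had such a p untreated, 2 of 16 against 9.09%. The median log2 difference of the 16 genes was 0.10 under DSS, 0.04 untreated and 0.22 in the interaction. The 5 tested proteases that shed or trim chemokines were not called either (under DSS none had an unadjusted p under 0.05, against 18.7% of all genes tested, and untreated Adam10, Anpep and Mmp7 did, each with a lower KO mean, against 9.09%), with Dpp4, which clips the ends of several chemokines, at 11.8 RPKM.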

How the data were processed

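Libraries were stranded and polyA-enriched (KAPA mRNA HyperPrep), per the labels' protocols. TopHat2 2.1.1, edgeR 3.30.3 and the build GRCm38 (mm10) are named in the submitters' processing notes. The sources used here do not give the read counter or the annotation. The authors deposited RPKM per library in 2 tables, untreated and DSS, with their own log2 fold change, log2 abundance, F score, p-value and false discovery rate, per the file headers. Deposited group columns, a signal on another scale, were not used. Of 23794 gene lines per table, 4 with repeated date names were left out. Whole reads were recovered from the RPKM steps for 100% of the 23790 genes (tolerance 0.001 reads), and the gene lengths they imply came out whole.

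KO was compared with WT within each table, and the interaction over 12 libraries, with limma 3.58.1 (R 4.3.3, mean-variance trend) on log2(RPKM + 1), for genes at 1 RPKM or more in at least 3 compared libraries. The pseudocount understates changes of low genes. The design named a count test for raw counts; as the unit is RPKM, limma was used. Benjamini-Hochberg adjustment ran over all genes tested, with calls at an adjusted p under 0.05. DSS and batch cannot be told apart, in the interaction too, so DSS was not tested against untreated. The fits were tested on simulated data. All chemokine genes are reported, expressed genes library by library. Of each pathway list, called genes and the 3 with the highest mean are named. Other pathway genes (Tlr2 among them) and marker genes were chosen after their values were seen. Members and lists were chosen with earlier results of these data known. Positions come from GENCODE vM21 on GRCm38, 1-based. Alternatives were other pseudocounts, filters, scaling, variance models, a replicate block and leaving out each library. Some members of the pathway lists are not reported here by name.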

Additional observations from a re-analysis of the deposited data

How the results depend on the processing

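The number of chemokine genes called by limma was 0 untreated under every alternative run. Under DSS it was 0 under pseudocounts of 0.1 and 0.01, no filter, a filter at 5 RPKM, median-ratio scaling, voom and robust variance, and 0 to 2 when a library was left out; in the interaction it was 0 under those settings and 0 to 1 when a library was left out. With the replicate block, 2 chemokine genes (Ccl9 and Ccl25) were called under DSS, and 398 genes in all against 84 without it. Same-numbered DSS libraries did not deviate together (r = -0.11, 0.36 and 0.13), and WT replicates 1 and 3 correlated best with another number, so the numbers are not taken as pairs; the untreated groups share only number 2, and no paired analysis was possible there. Of 391 values of single genes under the alternatives, 354 kept direction and side of the threshold, 8 came to pass it, none lost it and 29 changed sign with no call. Apart from left-out libraries, only Cx3cl1 changed sign, to 0.015 untreated and -0.063 in the interaction under voom and to 0.0036 under DSS with median-ratio scaling.

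With a library left out, the log2 difference ran from -0.090 to 0.047 (untreated), -0.038 to 0.064 (DSS) and -0.050 to 0.088 (interaction) for Cx3cl1, from -0.0083 to 0.17, -0.030 to 0.62 and -0.12 to 0.53 for Ccl6, from -0.27 to 0.024 (untreated) and -0.10 to 0.21 (DSS) for Ccl20, from -0.16 to 0.10 for Ccl28, -0.21 to 0.052 for Ccl9 and -0.19 to 0.00071 for Cxcl16 (untreated), and from -0.22 to 0.0076 for Ccl5 (DSS). Genes called in all numbered 84 under DSS and 158 in the interaction; with no filter they were 1 and 4, and with a library left out 1 to 364 and 1 to 433. In untreated libraries they numbered 2, 1 with no filter and 2 to 6 with a library left out. Expressed chemokine genes numbered 10, 15 at a threshold of 0.5 RPKM, 8 at 2 RPKM and 9 to 12 with a library left out. Low chemokines with a KO mean above the WT mean under DSS numbered 16 to 17, and those with separated libraries 5 to 10, with a library left out, a setting added after seeing the data. The causes were not tested. With 3 libraries a group and a few reads per floor gene, depth limits the low chemokines.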
